A study of Homo sapiens with 56 samples.

Results

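The experiment described here compared HuT78 cells kept with cobomarsen for 8 days against untreated HuT78 cells at the same day. The arrays were taken by their source label, line, day and treatment, which gave 4 cobomarsen and 4 untreated arrays, 8 of the 56 in the study. The study measured total RNA on Affymetrix arrays in 4 established cutaneous T cell lymphoma lines, HuT78, HuT102, MJ and MyLa, with and without cobomarsen. The 3 other lines were measured at day 4 and day 8 and HuT78 at day 8, so the study has 14 groups of 4 arrays. Its stated purpose for day 8 was to find changes downstream of the direct targets.

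HuT78 is an established line grown from the blood of a person with Sézary syndrome, the leukemic form of cutaneous T cell lymphoma. Cobomarsen, labelled MRG-106, is an oligonucleotide inhibitor of miR-155, and its concentration is not given in the sources used here. All wells were split at 96 hours by the dilution that took the untreated wells back to the density at seeding, into medium that still held the oligonucleotide for the treated wells. Fresh medium was added 48 hours later. The comparison group received no oligonucleotide, so effects of any oligonucleotide and effects of inhibiting miR-155 cannot be told apart here. The labels do not say whether the 4 arrays of a group came from separate cultures, so every p-value measures only the spread between these arrays, which may be technical.

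MicroRNAs guide Argonaute proteins to messenger RNAs whose sequence pairs with the microRNA seed, and the paired messages are translated less and degraded sooner. miR-155 is made from the noncoding transcript MIR155HG and is abundant in activated lymphocytes and in many lymphomas. An inhibitor that binds the microRNA leaves its targets to rise in cells that carry enough of it. The mature sequence is shown because cobomarsen is directed at it. It is from RefSeq (GRCh38.p14, chr21:25573983-25574006, plus strand), and the capitals mark the seed, bases 2 to 8.
hsa-miR-155-5p: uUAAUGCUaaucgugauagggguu

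The host transcript was near background in HuT78, which is part of how this experiment was chosen and is given as a description. The MIR155HG probe set read 31.4, 55.2, 47.9 and 10.01 in cobomarsen arrays 1 to 4 and 34.1, 26.5, 38.1 and 20.8 in untreated arrays 1 to 4, in linear signal units. All 8 values lay under 74.0, the signal set as the lower limit for testing a gene, and the groups overlapped. The 12 groups of the other lines had mean signals from 11499 to 29906 for the same probe set. The array does not measure mature miR-155.

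The T cell label fitted its markers in part. CD3D, a subunit of the T cell receptor complex, read 17089 to 24234 over the 8 arrays, and LCK, the kinase that starts receptor signalling, read 11564 to 15039. Of 7 T cell markers 6 had a mean above the limit, and the exception, CD2, read 17.6 to 69.6. The summed signal of the 7 was 32908 to 43014 with cobomarsen and 33090 to 35317 without. Of the Sézary markers with a probe set, TOX and TWIST1 were above the limit, while PLS3 and DNM3 had means of 4.46 and 27.4. Markers of other cell types were mixed. Of 5 B cell markers 4 were above the limit, CD79A at a mean of 390, CD79B at 245, CD22 at 97.9 and MS4A1 at 94.9, with PAX5 at 29.99. Of 5 keratinocyte markers 2 were above it, KRT10 at 3127 and KRT1 at 708, with KRT5 at 20.6 and KRT14 at 3.97. ITGAM of 4 myeloid markers (386), KIR2DL4 of 5 NK cell markers (418), COL1A1 of 6 fibroblast markers (255) and HBB of 4 erythroid markers (110) were above it, while CD14, KLRD1 and LUM had means of 13.3, 10.6 and 13.1. The summed myeloid signal was 302 to 469 with cobomarsen and 513 to 640 without, ranges that did not overlap, and its part in the results was not tested. Most of that sum was ITGAM, at means of 307 with cobomarsen and 464 without. Below the limit, LYZ (3.64 and 23.2) was lower with cobomarsen, while CD14 (19.1 and 7.57) and CSF1R (62.8 and 58.9) were higher.

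The 4 cobomarsen arrays did not lie at one distance from the untreated arrays, and this bears on every result that follows. Cobomarsen array 1 correlated with the untreated arrays at Pearson r 0.989 to 0.991 over genes, the range of the untreated arrays among themselves (0.988 to 0.992). Cobomarsen arrays 2 to 4 correlated with them at 0.969 to 0.984. In array 1, 40 of 10959 tested genes lay at least 2-fold from the untreated mean, close to the 28 to 49 of single untreated arrays, against 266, 266 and 518 in arrays 2, 3 and 4. On the first principal component, which held 48.6% of the variance, cobomarsen array 1 lay at -13.6 between untreated arrays 4 (-3.02) and 2 (-16.3). Cobomarsen arrays 2, 3 and 4 lay at 24.9, 11.96 and 32.4, and array 3 stood alone on the second component (18.8% of the variance) at 29.8.

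**Figure D1:**
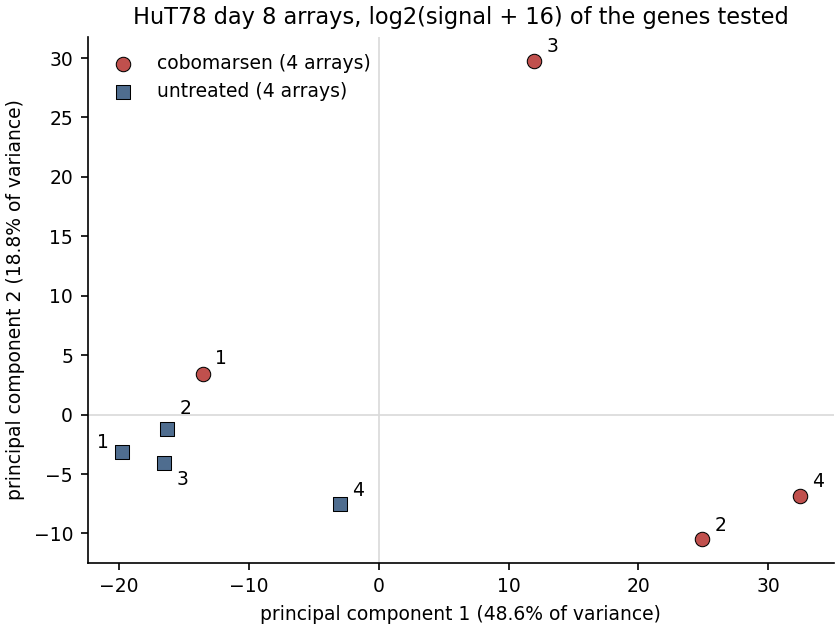
First and second principal components of log2(signal + 16) over the 10959 tested genes, 1 point per HuT78 array, with treatment shown by colour and array number beside each point. Cobomarsen array 1 lies among the untreated arrays on the horizontal axis, and cobomarsen array 3 lies apart on the vertical axis.

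The spread between arrays was correspondingly wide, again a property named when the experiment was chosen. The SD of log2 signal over 4 arrays had a median over genes of 0.22 with cobomarsen and 0.12 without, and 80.3% of genes had the larger SD with cobomarsen. The median ratio of the SDs was 1.81. The same ratio ran from 0.81 (MyLa day 8) to 1.30 (MyLa day 4) in the other 6 comparisons, and the median SD of the other 12 groups ran from 0.11 to 0.18. Without cobomarsen array 1 the median SD of the group was 0.19. The upper quartile of signal was 431 in cobomarsen array 1 and 380, 385 and 382 in arrays 2 to 4, against 422 to 443 in the untreated arrays. Their part in the results was not tested. The spiked-in poly(A) control mean was 3314 in cobomarsen array 2 and 1028 to 1419 in the other 7 arrays, and the GAPDH 3-prime to 5-prime ratio was 0.897 to 0.990 in all 8.

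**Figure D2:**
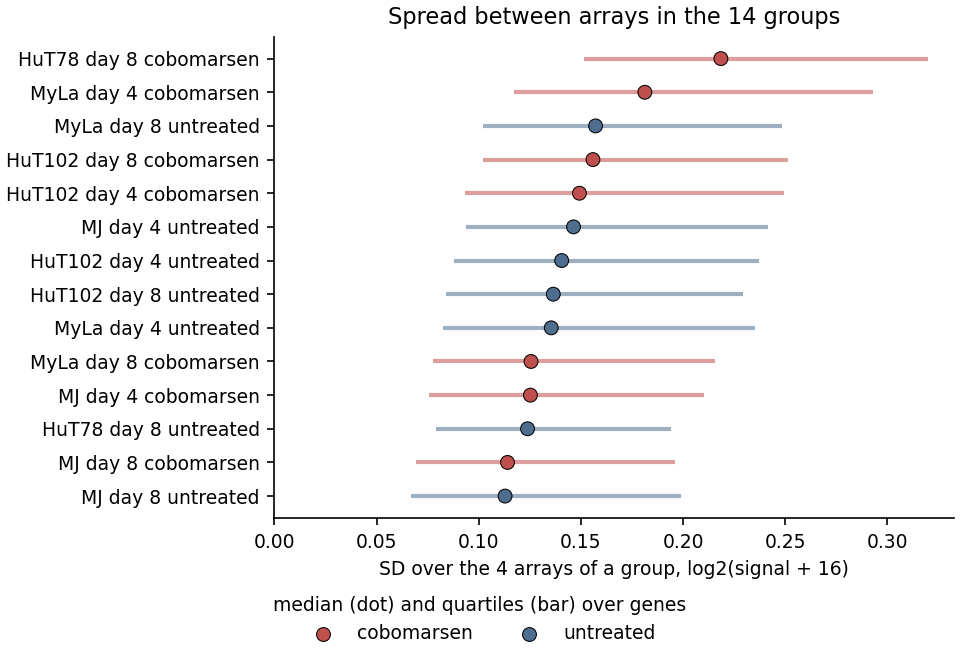
Median (dot) and quartiles (bar) over genes of the SD of log2(signal + 16) between the 4 arrays of each group, for all 14 groups, coloured by treatment. The HuT78 cobomarsen group has the widest median, 0.22, and the HuT78 untreated group is near the bottom at 0.12.

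Against this spread 2 metallothionein genes rose with cobomarsen and no gene fell in the test across all genes. The test was limma's on log2(signal + 16) over the 8 arrays, with Benjamini-Hochberg adjustment over 10959 genes and a threshold of 0.05. It called 2 genes higher (0.0182% of those tested) and 0 lower (0%), while 2673 genes had an unadjusted p under 0.05, and the lowest adjusted p of an uncalled gene was 0.121. Metallothioneins are small cysteine-rich proteins that bind zinc and copper, and their genes are induced by free zinc through the factor MTF1. A change in level over a cell population cannot separate more RNA per cell from more cells that carry the RNA.

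MT1X read 5517, 5875, 6440 and 5808 in cobomarsen arrays 1 to 4 and 3566, 3676, 3764 and 3722 in untreated arrays 1 to 4. Every cobomarsen array, array 1 included, lay above every untreated array. The means were 5910 ± 386 and 3682 ± 85.3 (SD, n = 4), a log2 difference of 0.68 (SE 0.078, limma adjusted p = 0.0202) and a fold of 1.60. A two-sided exact permutation test over the 8 arrays gave p = 0.0286, the smallest that 4 against 4 allows. A second MT1X probe set gave means of 4460 ± 181 and 3041 ± 234 (SD, n = 4) and a log2 difference of 0.55.

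MT2A, the most widely expressed human metallothionein, read 10916, 12404, 12214 and 12114 with cobomarsen and 7835, 7869, 7912 and 8344 without. The groups did not overlap, and cobomarsen array 1 was the lowest of its 4. The log2 difference was 0.57 (SE 0.075, limma adjusted p = 0.0344). Both calls are close to the threshold, and on simulated data this test called more unchanged genes than its threshold implies. Leaving out cobomarsen array 2 or 4 or any untreated array left MT1X at log2 0.64 to 0.71 over all 8 omissions, but with an adjusted p of up to 0.202, above the threshold in those 6. MT2A stayed at 0.55 to 0.62 and passed only without cobomarsen array 1 (adjusted p = 0.00316), with an adjusted p of up to 0.314 otherwise.

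The rest of the metallothionein and zinc transport list moved with these genes only in part. Of 25 genes listed, 23 had a probe set and 21 were tested; 2 were called, 5 had groups that did not overlap and were higher, and 0 were lower in that way. Over all tested genes 4.41% did not overlap and were higher. The median log2 difference of the 21 was -0.02, against -0.05 over all tested genes. MT1H read 1957, 1969, 2247 and 2020 against 1388, 1508, 1247 and 1214 (log2 difference 0.61, limma adjusted p = 0.121). MT1F read 1689, 2170, 2361 and 2237 against 1661, 1365, 1420 and 1500 (0.50, adjusted p = 0.136). In both the groups were apart, MT1F by the narrow gap between cobomarsen array 1 and untreated array 1.

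SLC30A1, the zinc exporter of the plasma membrane and another MTF1 target, read 1355, 1794, 1402 and 1466 against 1179, 1128, 1227 and 1319. Its groups were apart at a log2 difference of 0.30 (limma adjusted p = 0.146). A second SLC30A1 probe set went the other way, with means of 308 with cobomarsen and 358 without, a log2 difference of -0.21 and overlapping groups. MT1G (0.32), MT1E (-0.02, and 0.20 for a second probe set), MT3 (-0.13) and MT1HL1 (-0.30) had overlapping groups, as did MTF1 itself (-0.14). The tested MT1X, MT2A, MT1H, MT1F, MT1E, MT1G and MT1HL1 probe sets carry a suffix (_x_at) that marks probes shared between near-identical sequences. Which member their signal comes from is therefore uncertain.

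The metallothionein promoters are shown because both called genes lie in the metallothionein cluster of chromosome 16 and their promoters carry several copies of the metal response element core. The windows are from RefSeq promoters (GRCh38.p14, plus strand) that run from 250 bases before to 50 bases after the gene start. The motif searched was TGCACNC or TGCGCNC on both strands, and the capitals mark it. On the opposite strand it reads GNGTGCA or GNGCGCA.
MT1X chr16:56682310-56682336: ggccccgcggTGCGCCCggcgctgggc
MT1X chr16:56682338-56682364: cacgggttgcTGCACCCggcccaggat
MT1X chr16:56682382-56682408: cagcaggggcGGGTGCAaggacgaggc
MT1X chr16:56682407-56682433: gcggggcctcTGCGCCCggccctcttc
MT2A chr16:56608421-56608447: cagagccgggTGCGCCCggcccagtgc
MT2A chr16:56608435-56608461: cccggcccagTGCGCGCggccgggtgt
MT2A chr16:56608520-56608546: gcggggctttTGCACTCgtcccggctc

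The MT1X window held 4 matches and the MT2A and MT1H windows 8 each, with no overlapping matches. Of 35116 promoters of that length 10377 (29.6%) held at least 1 match and 211 (0.601%) at least 4. SLC30A1 had 2 matches, the ACTA2 promoters 1 and 0, and NQO1 0. A match describes letters in the window and is neither a binding site nor a cause.

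MT1X and MT2A were not called higher in any of the other lines at day 8. In 1 limma fit over the 32 day 8 arrays, MT1X differed by -0.46 on the log2 scale in HuT102 (means 4050 with and 5584 without cobomarsen), 0.07 in MJ (15080 and 14371) and -0.38 in MyLa (3276 and 4295). The difference between HuT78 and the mean of the other 3 lines was 0.93 (SE 0.094, limma adjusted p = 4.6e-09), and for MT2A it was 0.87 (SE 0.10, adjusted p = 1.1e-07). MT1H (0.88), MT1F (0.74) and MT1G (0.47) were also called for this difference. On simulated data the test of this difference also called more unchanged genes than its threshold implies, which limits all its calls given here. The running numbers in the sample titles place HuT78 and MyLa in a range apart from HuT102 and MJ. What these ranges mean is not stated, and their part in this difference was not tested. In MJ, however, MT1F was called higher (0.39, limma adjusted p = 0.0015), and MT1H and MT1G read 0.31 and 0.25 without a call. In HuT102 these 3 read -0.66, -0.56 and -0.51 in the order MT1F, MT1H and MT1G, and in MyLa -0.46, -0.57 and -0.20. At day 4, when HuT78 was not measured, MyLa had 10845 ± 1316 with cobomarsen and 3916 ± 648 without (SD, n = 4) for MT1X, so the direction in MyLa differed between the days.

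**Figure D3:**
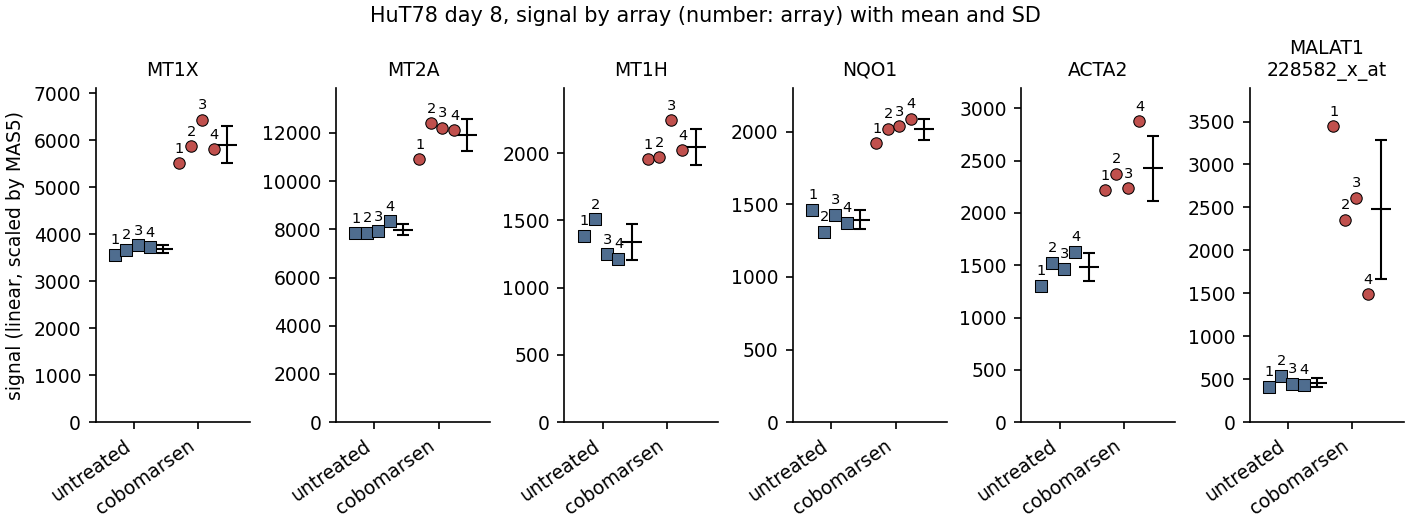
Linear signal of 5 genes and of 1 MALAT1 probe set in the 8 HuT78 arrays (points, numbered by array), with mean and SD (bars, n = 4). In all 6 panels every cobomarsen array lies above every untreated array, and the vertical axes start at 0.

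Beyond the calls, 990 genes (9.03%) had groups that did not overlap, 483 higher (4.41%) and 507 lower (4.63%) with cobomarsen. After quantile normalization the numbers were 591 higher and 383 lower, so the balance between directions depends on the scaling. At least 2-fold differences of the means were found for 2 genes higher (0.0182%) and 38 lower (0.347%). Without cobomarsen array 1 the counts were 3501 without overlap and 137 at 2-fold, and without untreated array 4 they were 2192 and 68. The median log2 difference over all tested genes was -0.05, and 4701 of 10959 lay above 0.

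NQO1, a quinone reductase regulated by the oxidative stress factor NRF2, read 1920, 2021, 2037 and 2090 with cobomarsen and 1463, 1312, 1430 and 1374 without. The groups were well apart and array 1 was close to the other 3. The log2 difference was 0.53 (SE 0.085, limma adjusted p = 0.121), and all 3 NQO1 probe sets had higher cobomarsen arrays with no overlap. Of 12 tested genes of the NRF2 list 2 (16.7%) were apart and higher, NQO1 and PGD, against 4.41% of all genes, while GCLM, which makes glutathione, read -0.33 with overlapping groups. NQO1 differed by 0.36 in HuT102, 0.66 in MJ and -0.06 in MyLa, and the difference of HuT78 from the 3 lines did not pass the test (0.21, limma adjusted p = 0.197).

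ACTA2, smooth muscle actin, read 2216, 2374, 2234 and 2877 against 1305, 1524, 1465 and 1628. No array overlapped, and the log2 difference of 0.70 had a limma adjusted p of 0.121. ACTA2 went the other way in the 3 other lines (-0.24 in HuT102, -0.37 in MJ and -1.49 in MyLa), and the difference of 1.40 was called (SE 0.092, limma adjusted p = 4.6e-13).

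SKA3, a kinetochore protein needed to attach chromosomes to the spindle, read 512, 768, 922 and 960 against 390, 434, 429 and 387. Array 1 was the lowest of the cobomarsen arrays but above all untreated arrays (log2 difference 0.88, limma adjusted p = 0.136). BIK, a pro-death member of the BCL2 family, read 496, 661, 948 and 653 against 361, 350, 364 and 457 (0.79, adjusted p = 0.136). TTC9C, the biotin-recycling enzyme BTD, AAMDC and UBE2NL completed the 10 largest rises without overlap, at log2 0.57 to 0.60. UBE2NL is a near-copy of UBE2N, and its signal may come from either.

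The 10 largest falls without overlap ran from -1.25 to -1.02 on the log2 scale, each with a limma adjusted p of 0.136. DYNLL2, a light chain of the dynein motor, read 4587, 2142, 2603 and 2054 against 4767, 6695, 5237 and 5763, so array 1 lay just under the untreated range. HELLS, a chromatin remodeler needed for DNA methylation, read 1721, 1158, 689 and 1131 against 1978, 2341, 2614 and 2265, again with array 1 nearest the untreated arrays. MIR570HG read 198, 58.0, 96.2 and 68.5 against 211, 256, 248 and 207. POLK, a DNA polymerase that copies past damaged bases, read 450, 490, 193 and 311 against 1002, 546, 1078 and 682. The others were ZNF579, NHSL3, ZNF682, the integrin subunit ITGB8, and the pseudogenes GTF2IP20 and NACA4P, whose signal may come from their parent genes.

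How many genes passed the test depended on how array 1 and the spread were treated. Without cobomarsen array 1, limma called 1218 genes higher (11.1%) and 1410 lower (12.9%) of 10933. With all 8 arrays and array weights it called 1144 higher (10.4%) and 1617 lower (14.8%). With the spread estimated over all 56 arrays it called 1164 higher (10.6%) and 1245 lower (11.4%). Of the 2628 genes called without array 1, 622 had groups that did not overlap when array 1 was kept. Leaving out any other array gave 0 or 1 gene. The counts without array 1 describe 3 arrays against 4.

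Genes of oxidative phosphorylation, which encode the complexes of the mitochondrial respiratory chain, had the highest median of the gene lists at the deposited scaling. All 29 tested members were above 0 with a median log2 difference of 0.30, against -0.05 over all genes, and 8 (27.6%) did not overlap, against 4.41% of all genes. None passed the test with 8 arrays; 21 did without array 1 and 22 with the 56-array spread, all higher, where 11.1% and 10.6% of all genes were called higher. By array the list's median difference from the untreated mean was 0.04, 0.52, 0.45 and 0.31 for cobomarsen arrays 1 to 4, so array 1 did not share it. COX7B, a subunit of cytochrome c oxidase, read 15085, 22096, 21436 and 18202 against 13676, 13904, 14634 and 14448. NDUFA1, a subunit of complex I, read 12884, 19776, 16920 and 18363 against 10948, 12222, 11569 and 12987, where untreated array 4 exceeded cobomarsen array 1. Quantile normalization reduced the list's median to 0.14, below the 0.17 that interferon-stimulated genes then had.

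Cytosolic ribosomal protein genes had a median of 0.23, with all 15 above 0, 1 apart (RPL3, 6.67% against 4.41% of all genes) and 0 called; 11 passed as higher without array 1, where 11.1% of all genes did. Their median by cobomarsen array was 0.02, 0.41, 0.44 and 0.09, so arrays 2 and 3 carried it. After quantile normalization it was 0.01. These are among the brightest probe sets, and the upper quartile of signal was lower in arrays 2 to 4, as given above.

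Mitosis genes had a median of 0.17 (0.06 after quantile normalization), with 5 of 20 (25%) apart and higher, against 4.41% of all genes, and 0 called. CCNB1, the cyclin of mitotic entry, read 5875, 6957, 6142 and 7437 against 4553, 4787, 5165 and 5524, and AURKA, BUB1 and CDC20 were apart too. FOXM1, a transcription factor that drives such genes, read 1890, 834, 1800 and 623 against 1371 to 1894, so its arrays 2 and 4 were low. Among 19 DNA replication genes the median was 0.00; RRM2 was apart and higher, and E2F1, UHRF1 and MCM4 were apart and lower, beside 4.41% and 4.63% of all genes. MCM4, a helicase subunit, read 5087, 4476, 4068 and 5137 against 6014, 5835, 5691 and 5789 (log2 difference -0.32, limma adjusted p = 0.136).

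Of 15 proteins known to bind oligonucleotides in cells, 5 (33.3%) were apart and higher, M6PR, XRCC6, HMGB1, SFPQ and XRN2, against 4.41% of all genes. The list median was 0.16 and 0 were called; without array 1, 7 passed as higher, where 11.1% of all genes did. M6PR, a receptor that sorts cargo to lysosomes and takes part in oligonucleotide trafficking, read 1921, 2059, 2542 and 2544 against 1589, 1719, 1599 and 1687 (0.45, limma adjusted p = 0.136). XRCC6, the Ku70 subunit, read 19066, 22399, 23800 and 20052 against 16056, 16254, 17118 and 17742 (0.34, adjusted p = 0.136). After quantile normalization the list's median was 0.06.

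Nucleic acid sensing genes had a median of -0.25 over 15 (-0.11 after quantile normalization and -0.14 without cobomarsen array 3), with 0 apart and 0 called. MAVS, the adaptor of the cytosolic RNA sensors, read 2849, 1126, 2264 and 488 against 1906 to 3168, and STING1 read 993, 567, 993 and 681 against 883 to 1142. In both, arrays 2 and 4 were low and arrays 1 and 3 lay near the untreated range. Interferon-stimulated genes had a median of 0.07 over 25 (0.17 after quantile normalization) and 0 called. IFI35 and EPSTI1 were apart and higher and OAS3 apart and lower, together 12% of the list, near the 9.03% of all genes that were apart. MicroRNA machinery genes had a median of -0.11 over 15 (-0.05 after quantile normalization, -0.19 with array weights and -0.07 without untreated array 1) with 0 apart; AGO2, the Argonaute that cleaves, read 1526, 1132, 1237 and 1352 against 1482 to 1565.

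JAK-STAT feedback genes had a median of -0.24, with 13 of 16 below 0, 0 apart and 0 called; 7 passed as lower without array 1, where 12.9% of all genes did. Without cobomarsen array 4 the median was -0.16. CISH, a STAT5 target that restrains cytokine receptors, read 3138, 1439, 2341 and 1578 against 2873 to 3573, and JAK3, the kinase of the common gamma chain, read 2348, 1197, 2064 and 1282 against 2136 to 2956. PI3K pathway genes had a median of -0.17, with 14 of 17 below 0 and RPS6KB1 and PIK3R5 apart and lower (11.8%, against 4.63% of all genes); without cobomarsen array 4 the median was -0.08. MAPK-ERK feedback genes had a median of -0.20, with 13 of 14 below 0 and 0 apart. T cell receptor and identity genes had a median of -0.14, and of -0.05 without cobomarsen array 2. PTPRC, RUNX3 and CD4 were apart and lower (21.4% of 14, against 4.63% of all genes), while CD3D differed by 0.30.

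Integrated stress response genes had a median of 0.02, but array 1 of each group was high, at 0.24 with cobomarsen and 0.23 without. CHAC1, which breaks down glutathione, read 804 and 1053 in cobomarsen and untreated array 1. SLC7A11, the cystine importer, read 652 and 846 there, against 174 to 315 in the other 6 arrays. The array numbers follow accession order, and the labels do not pair the arrays.

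**Figure D4:**
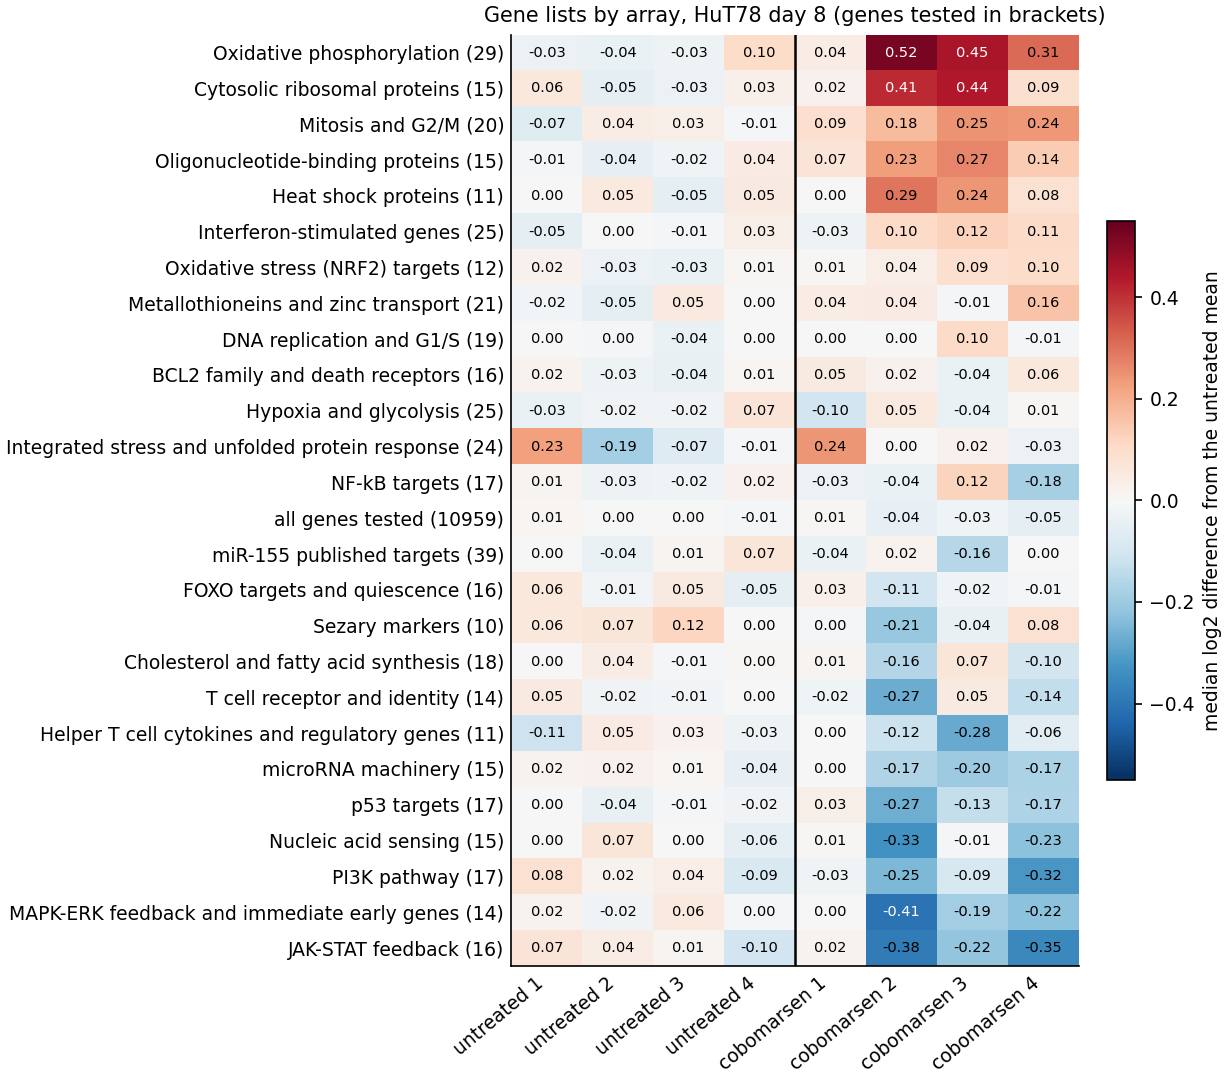
Median log2 difference from the untreated mean over the tested members of each gene list (rows), for each of the 8 HuT78 arrays (columns), with colour and printed number giving the value. Oxidative phosphorylation reads 0.04 in cobomarsen array 1 and 0.31 to 0.52 in cobomarsen arrays 2 to 4.

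Of the 10 genes that varied most among the cobomarsen arrays, 7 were lower in both arrays 2 and 4 than in arrays 1 and 3. ST3GAL3 and EPOR were higher in both, EPOR being low in array 3 above all, and DUSP8 divided neither way. SPN, the sialylated surface protein CD43, read 2698, 406, 2476 and 146 against 2159 to 3115 in the untreated arrays. Its log2 SD was 1.99 with cobomarsen and 0.24 without. Outside these 10, and chosen after their values were seen, TGFB1, a growth-inhibiting cytokine, read 2597, 821, 2113 and 836, and the fatty acid synthase FASN read 1959, 620, 1301 and 749. SPN, TGFB1 and FASN had overlapping groups, and none was called with 8 arrays.

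Published targets of miR-155 did not rise as a list in HuT78. Of 50 genes listed, 46 had a probe set and 39 were tested. None was called higher or lower; 15 lay above 0 and 24 below, the median log2 difference was -0.13, and 0 were apart and higher while 3 were apart and lower (ZNF652, RAPGEF2 and IFNGR1). Over all genes 4.41% were apart and higher and 4.63% lower. Between 2 and 3 of the 39 were called higher and 4 or 5 lower without array 1, with array weights or with the 56-array spread, fits in which 10.4% to 11.1% of all genes were called higher and 11.4% to 14.8% lower. The median was -0.02 without cobomarsen array 3, -0.06 without cobomarsen array 4, -0.05 without untreated array 1 and -0.04 with array weights.

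The same list behaved otherwise in the lines that express the host transcript. In the fit over 32 arrays, 27 members were called higher in HuT102 (18.9% of all genes called higher there), 26 in MJ (15.2%) and 25 in MyLa (22.2%). In HuT78 the same fit called CARHSP1 (limma adjusted p = 0.0084) and SMAD2 (0.025) higher. It called TP53INP1 (limma adjusted p = 0.0048), RICTOR (0.013) and ETS1 (0.0074) lower. The share of all genes that this fit called in HuT78 was not computed, so these calls are not read as a result about the list. The lack of calls given above for HuT78 came from the fit over the HuT78 arrays alone, which is a different test. For the difference between HuT78 and the mean of the other 3 lines, limma called 2033 genes higher (17.5%) and 2285 lower (19.7%) of 11619. Of the 39 listed targets tested in HuT78, 27 were lower for this difference and 3 higher, with a median of -0.76. Other lists differed too. Called higher for it were 12 of 15 cytosolic ribosomal protein, 14 of 20 mitosis, 16 of 25 interferon-stimulated and 16 of 29 oxidative phosphorylation genes, with 0 lower in each. In the other direction, 10 of 15 FOXO target and 9 of 17 PI3K pathway genes were called lower and 1 of each list higher. Oxidative phosphorylation was also higher in HuT102, with a median of 0.26 and 19 of 29 called higher, against -0.02 in MJ and -0.13 in MyLa. For the interferon-stimulated genes the median was -1.23 in HuT102, -0.33 in MJ, 0.07 in MyLa and 0.07 in HuT78. In HuT102 24 of 25 were called lower, where 21% of all genes were.

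CARHSP1, an RNA-binding protein that stabilises TNF messages, read 9153, 13024, 12628 and 12068 with cobomarsen and 8651, 8870, 8402 and 9813 without. It had the largest positive value among the targets that rose in all 3 other lines, 0.38, and array 1 lay inside the untreated range. PICALM, a clathrin adaptor, read 3512, 3601, 2768 and 3622 against 3413, 3996, 3531 and 3868 (-0.14), and differed by 2.03 in HuT102, 1.54 in MJ and 2.10 in MyLa. JARID2, a cofactor of the Polycomb complex, read 6031, 4411, 4883 and 4988 against 6041, 5008, 6004 and 5367 (-0.15). SOCS1, a much-studied target that restrains JAK kinases, averaged 11.97 and 9.03 and was not tested in HuT78.

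Of the listed targets 20 were called higher in all 3 other lines, and 19 of these were tested in HuT78, where they ran from -0.38 (ETS1) to 0.38 with a median of -0.13. All 19 were called lower for the difference between lines, which follows in part from choosing them by their rise in those lines. Before any oligonucleotide, untreated HuT78 had a higher mean signal than all 3 other untreated lines for 13 of the 19, lay between them for 5 and below them for 1. Over all tested genes 36.8% were highest in untreated HuT78. The 19 were chosen with the untreated arrays of the other lines, so this is a description. CARHSP1 averaged 8934 in untreated HuT78 and 1256 to 1472 in the others, JARID2 5605 against 796 to 2076, and PICALM 3702 against 1604 to 1900.

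**Figure D5:**
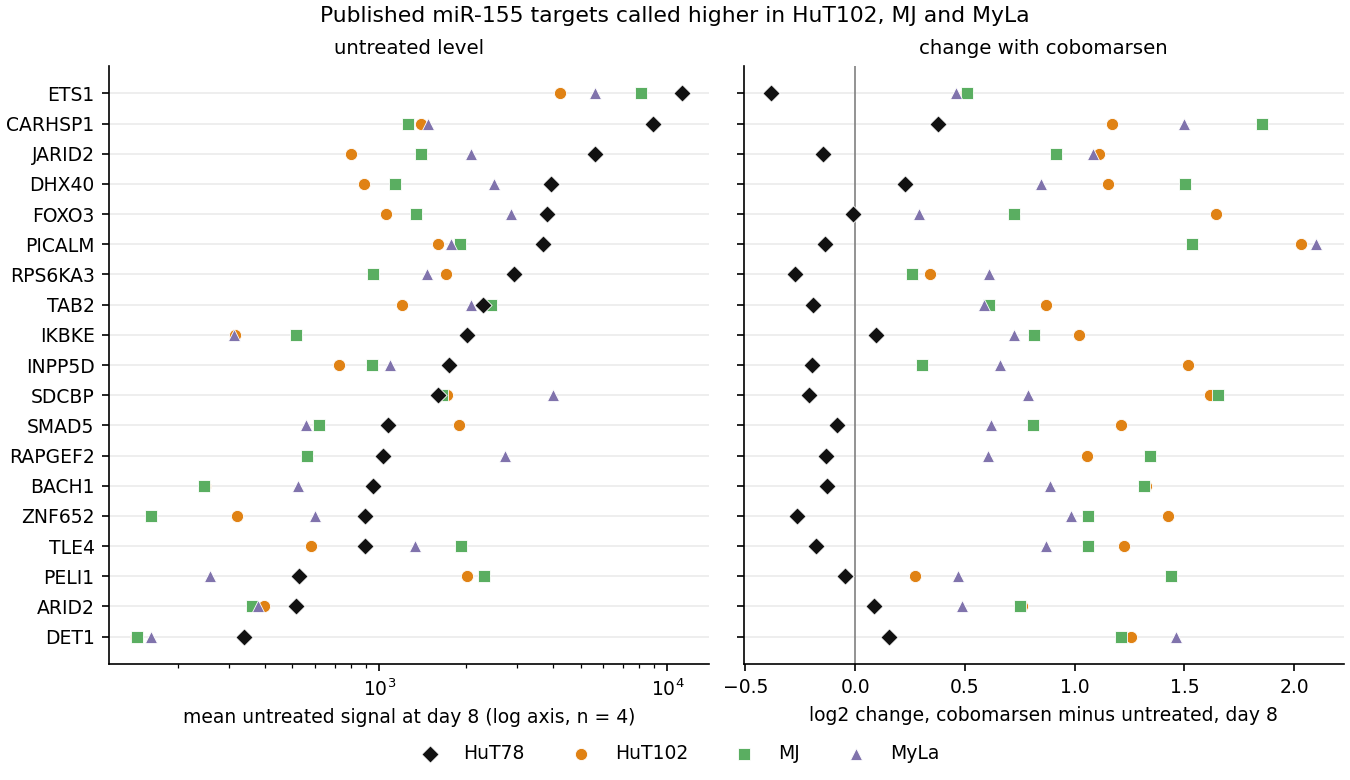
The 19 published miR-155 targets called higher in HuT102, MJ and MyLa and tested in HuT78: mean untreated signal at day 8 (left, log axis, n = 4 per line) and log2 change with cobomarsen (right), with lines shown by symbol. On the right HuT78 lies between -0.38 and 0.38 while the other lines lie at 0.26 or more.

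Few of the genes that moved together in the other lines were apart in HuT78 in the same direction, and few of all genes were. At day 8, 348 genes were apart and higher in all 3 other lines. Of these 10 (2.87%) were apart and higher in HuT78 and 19 (5.46%) apart and lower, beside 4.41% and 4.63% of all tested genes. The 10 made up 2.07% of the HuT78 higher list and included ATP6V1C1, a proton pump subunit, and KAT6B, a histone acetyltransferase. Of 269 genes apart and lower in the other lines, 10 (3.72%) were lower and 22 (8.18%) higher in HuT78, and the 10 made up 1.97% of the HuT78 lower list. TNF, the inflammatory cytokine, was among them and read 788, 572, 762 and 533 against 894, 917, 993 and 828 (-0.46).

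Among the 8 largest differences between HuT78 and the other lines in each direction, HuT78 levels were often low. KLHL5 had a high level: it averaged 2159 with and 2252 without cobomarsen in HuT78 (-0.08), and differed by 1.81 in HuT102, 2.70 in MJ and 2.29 in MyLa (difference -2.34, SE 0.15, limma adjusted p = 2.7e-13). FGFR3, a growth factor receptor, averaged 26.4 and 73.5 in HuT78 and differed by 4.81 in HuT102 (difference -3.19). FLJ40288 averaged 78.1 and 15.4 in HuT78 and differed by 0.29, -0.15 and -0.40 in HuT102, MJ and MyLa (difference 1.59), none of these 3 called. CIITA, the master regulator of class II antigen presentation, averaged 58.1 and 102.4 in HuT78, and TXK, a kinase of T cells, 243 and 360. In the other direction ZBED2 averaged 12.3 and 4.70 in HuT78 while it differed by -1.54, -3.21 and -3.67 in HuT102, MJ and MyLa (difference 3.16). IL6, an inflammatory cytokine, averaged 35.2 and 30.3 in HuT78 and gave a difference of 1.75.

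When every probe set was tested on its own, 2 further probe sets passed beside those of MT1X and MT2A; they were chosen after their values were seen. A probe set annotated to MALAT1, a nuclear long noncoding RNA, read 3447, 2357, 2615 and 1486 with cobomarsen and 413, 539, 448 and 438 without. It carries the _x_at suffix described above, so which transcript its signal comes from is uncertain. Every cobomarsen array, array 1 the most, lay far above the untreated arrays, with a log2 difference of 2.33 (SE 0.21, limma adjusted p = 0.00155; two-sided exact permutation p = 0.0286). Of 12 tested MALAT1 probe sets only this and 1 other (0.57) were apart, and the one taken for the gene had overlapping groups (0.53). The same probe set averaged 18637 against 2121 in HuT102, 4186 against 460 in MJ and 1394 against 615 in MyLa at day 8, where the MyLa groups overlapped.

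The other was a probe set of SRSF7, a splicing factor that regulates its own splicing. It read 3125, 2511, 2545 and 2850 against 4731, 5061, 4944 and 4205, a log2 difference of -0.78 (SE 0.10, limma adjusted p = 0.0308) with groups apart. A pair of other SRSF7 probe sets were apart in the opposite direction, at 0.32 and 0.21. The SRSF7 probe sets therefore did not move one way, and no direction is given for the gene.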

How the data were processed

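The authors deposited 1 table of MAS5 signal intensity per probe set for 56 arrays, per the submitters' processing notes; the version, background settings and scaling target are not given in the sources used here. The values are linear, and each array's mean after trimming 2% at each end was 500. Of 54675 probe sets, 41091 had 1 gene symbol, 1801 several and 11721 none; 62 were controls. Where several probe sets carried 1 of the 19775 symbols, the brightest on average across all arrays stood for the gene.

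Intensities were taken as log2(signal + 16), so the changes of dim genes are understated. A gene was tested when its mean log2 over the arrays compared reached 6.49 (signal 74.0), the median of the table. Groups were compared with limma 3.58.1 in R 4.3.3 (lmFit, eBayes with an intensity trend, two-sided, Benjamini-Hochberg, threshold 0.05); single probe sets also with a two-sided exact permutation test in Python 3.11.15 with SciPy 1.17.1. Groups that do not overlap, or are apart, have all 4 arrays of one above all 4 of the other. The scripts were tested on simulated data. There, with the groups' own unequal spreads, both tests called more unchanged genes than their threshold implies. The test over the HuT78 arrays called 135 genes, of which 14 were unchanged. The test of the difference between lines called 218, of which 83 were unchanged. A fit with 1 weight per group was therefore added after seeing the data. For the difference it still called 40 unchanged genes among 156.

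The experiment, its members and the gene lists were chosen with earlier results of these data known. The genes named were the called ones, the 10 largest rises and falls without overlap and up to 5 members per list. The rises, falls and these members came from genes whose group means both reached the limit. Also named was any tested member of the miR-155, metallothionein, oligonucleotide-binding, microRNA machinery and nucleic acid sensing lists. The 8 largest differences between lines in each direction and the 10 widest among the cobomarsen arrays were named without that limit on both means. SOCS1, CHAC1, TGFB1, FASN, TNF and the MALAT1 and SRSF7 probe sets were named beyond this rule after their values were seen. So were members that spell out a small count and the genes shared with other lines. Alternatives were the offset, the filter, quantile normalization, the intensity trend, array weights, all 56 arrays, every probe set and each array left out. For the difference between lines, MyLa alone as the other line was a further alternative, and its number of calls is not given here. The number of arrays limits the precision.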

Additional observations from a re-analysis of the deposited data

Results flagged for a closer look

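In 7 of 52 groups of 4 values examined, 1 array stood apart from the other 3 by Dixon's ratio, where chance gives about 1 in 20. Untreated array 4 was highest for MT2A (8344) and for BIK (457.4) and lowest for the upper quartile of signal (421.6). Cobomarsen array 1 was highest in its group for the upper quartile of signal (431.3). UBE2NL was highest in cobomarsen array 2 (1222) and in untreated array 2 (979.6). Untreated array 2 had the lowest GAPDH 3-prime to 5-prime ratio of its group (0.9403).

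The day 8 effect in HuT78 differed from the mean of the other 3 lines by limma's test of the difference for 32 of the genes examined here. Those examined were the largest rises and falls without overlap in HuT78 and the 16 genes with the largest differences between lines. These 16 were chosen by this same difference, so their passing is not a separate result. Other genes named above were also called for it, MT1F, MT1G, PICALM, JARID2 and CARHSP1 among them, and are not in the count. In log2 units, the difference for genes that were higher in HuT78 without overlap was 0.93 for MT1X, 0.87 for MT2A, 0.76 for SKA3, 1.40 for ACTA2, 0.88 for MT1H, 0.89 for TTC9C, 0.60 for BTD, 0.76 for AAMDC and 0.63 for UBE2NL. For genes that were lower in HuT78 without overlap it was -1.03 for POLK, -1.10 for GTF2IP20, -2.15 for MIR570HG, -1.15 for NACA4P, -1.09 for DYNLL2, -0.75 for HELLS and -1.61 for ITGB8. The largest positive differences were 3.16 for ZBED2, 1.98 for S100A2, 1.96 for LINC01588, 1.79 for DGKG, 1.75 for NTRK2, 1.75 for IL6, 1.60 for LINC01619 and 1.59 for FLJ40288. The largest negative differences were -3.19 for FGFR3, -2.68 for TSPOAP1, -2.36 for TXK, -2.35 for COL1A1, -2.34 for CIITA, -2.34 for KLHL5, -2.33 for GREB1 and -2.31 for WNT5B.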

How the results depend on the processing

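No paired analysis was made because the sample titles give the HuT78 groups no shared replicate numbers. The titles do alternate untreated and cobomarsen arrays in running order, and a fit that pairs neighbouring numbers was not run. The number of genes called (2) was 2409 with all 56 arrays in 1 model, 3189 with these and array weights, 2761 with array weights, 4 probe sets with every probe set on its own, 1 with no filter and 0 with no intensity trend; it ran from 0 to 2628 over left-out arrays, with 2628 without cobomarsen array 1, 1 without cobomarsen array 3 and 0 otherwise. With the other scalings, filters and offsets, and with 1 weight per group, it stayed at 2. Genes without overlap (990) numbered 1838 with every probe set, and 1172 to 3501 over left-out arrays, 3501 without cobomarsen array 1 and 2192 without untreated array 4. Genes at least 2-fold apart (40) numbered 63 with an offset of 1, 14 with 64, 126 with no filter, 12 with the filter at the 75th percentile, 25 after quantile normalization, 73 with every probe set, and 25 to 137 over left-out arrays, 137 without cobomarsen array 1, 25 without cobomarsen array 4 and 68 without untreated array 4. The ratio of SDs (1.81) was 1.44 with no filter and 1.52 to 2.15 over left-out arrays. The miR-155 target median (-0.13) was -0.033 with no filter, -0.055 after quantile normalization, -0.056 with every probe set and -0.11 to -0.021 over left-out arrays. MT1X was 0.68 and no longer passed with no intensity trend; over left-out arrays it was 0.64 to 0.71 with adjusted p from 0.00316 to 0.202. The number called for the difference between lines (4318) was 6970 with every probe set, 3466 with 1 weight per group, and 3720 to 5076 over left-out arrays. No gene recomputed under these settings changed direction. The cause of these shifts was not tested. Signals near background, which include the host transcript, SOCS1 and most genes of the largest differences between lines, set no reliable level in HuT78.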
